A study of Mus musculus with 2 samples.

Results

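Genes of 7 solute carrier families that move amino acids and small peptides across membranes (SLC1, SLC3, SLC6, SLC7, SLC15, SLC36 and SLC38) were examined in NIH3T3 cells, an established mouse embryonic fibroblast line. Members were taken by name alone: every deposited gene whose symbol is Slc followed by 1, 3, 6, 7, 15, 36 or 38, the letter a and a number. This gave 61 genes of 22838. Messenger RNA had been sequenced from 1 untreated culture and from 1 culture exposed to 100 µM ALA for 16 h, and both carry no other treatment or genotype in the labels. ALA is not spelled out in the labels; it is read here as δ-aminolevulinic acid, a committed precursor of heme, because the series title concerns SRRD, a heme-dependent protein. The question is how the transporter transcripts compare between the cultures. Each group is a single library, so there is no replicate check and no p-value, and "higher" or "lower" describes these 2 libraries.

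Amino acids cannot cross membranes unaided, and each cell type builds its own set of carriers. SLC1, SLC6 and SLC38 proteins draw on the sodium gradient, SLC15 and some SLC36 proteins on protons, and most SLC7 proteins exchange one amino acid for another. Several SLC7 light chains reach the cell surface only as a disulfide-linked pair with a heavy chain, SLC3A2 (also called 4F2hc or CD98) or SLC3A1 (rBAT). ALA resembles a dipeptide and γ-aminobutyric acid in shape, and the peptide carriers PEPT1 and PEPT2 (Slc15a1, Slc15a2), the proton-coupled carrier PAT1 (Slc36a1) and SLC6 carriers for taurine and γ-aminobutyric acid (Slc6a6, Slc6a13) have been described as able to take it up. Inside the cell, carriers of the lysosomal membrane release amino acids from digested protein, and some of them report amino acid supply to the growth kinase mTORC1.

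Values are FPKM, read numbers scaled to transcript length and library depth, so levels can be compared between genes. A gene is called measured when its mean over both libraries was at least 1 FPKM. Of the 61 transporter genes 26 (42.6%) were measured, against 10929 (47.9%) of all genes. A further 5 had a mean between 0.1 and 1 FPKM, 11 were above 0 but under 0.1, and 19 were listed at 0 in both libraries, which in a file without counts need not mean that no read was present. Differences are given as a log2 ratio, taken after adding 1 FPKM to both values, a step that shrinks the ratios of low genes, and as the plain ratio of FPKM. Steps between low values put the depth at roughly 24.7 M reads in the untreated library and 33.4 M in the ALA library, and the approximate 95% counting intervals below rest on that estimate. They cover counting error only: among all measured genes with an interval, 74.9% had one that excluded a ratio of 1.

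The line's transporter repertoire was led by a few genes. Slc38a2, which encodes the system A carrier SNAT2 for small neutral amino acids, had the highest level, with 129 FPKM untreated and 137 FPKM with ALA. Slc6a6, the taurine carrier gene, followed with 81.8 and 98.1 FPKM, and the heavy chain gene Slc3a2 with 73.9 and 89.04 FPKM. The next levels were those of Slc7a5, the light chain LAT1 for large neutral amino acids, Slc38a10 and Slc38a4. The 5 highest genes by mean held 55.5% of the 661 FPKM that all 61 genes summed to in the untreated library. That sum was 759 FPKM in the ALA library, a ratio of 1.15, while the FPKM of the whole table summed to 540963 and 512324.

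**Figure D1:**
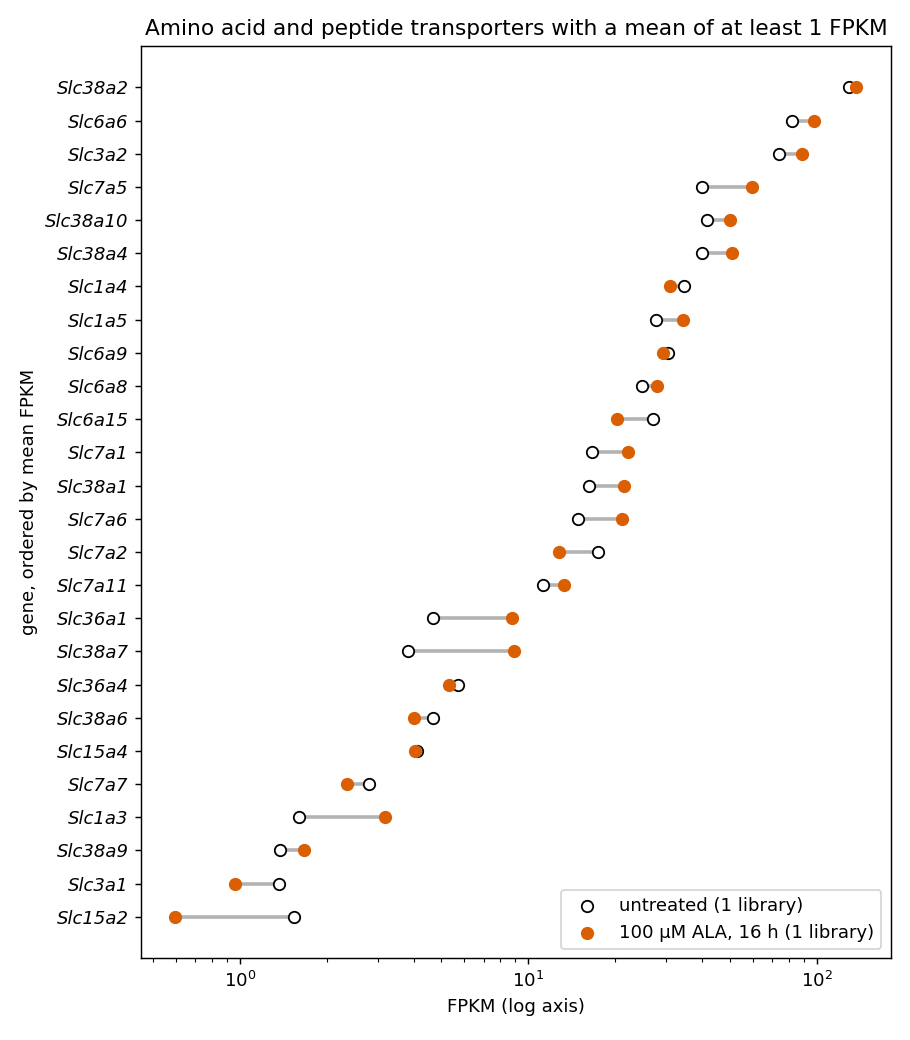
FPKM (log axis) of the 26 measured transporter genes, ordered by mean, in the untreated library (open circles) and the ALA library (filled circles), 1 library each. Slc38a2 was highest in both, and the longest connecting lines belong to Slc38a7, Slc36a1, Slc1a3 and Slc15a2.

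Most measured transporter genes were slightly higher in the ALA library. Of 26, 16 were higher and 10 lower, where 47.8% of all measured genes were higher and 52.2% lower, and their median log2 ratio was 0.20 against -0.02 for all measured genes. Split by level, of 11 transporter genes averaging 20 FPKM or more 8 were higher (46.6% of all genes at that level), of 8 between 5 and 20 FPKM 6 were (48.3%), and of 7 between 1 and 5 FPKM 2 were (49.0%). Log2 ratios ran from -0.67 for Slc15a2 to 1.04 for Slc38a7.

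Few differed by much. At least 1.5-fold higher were 3 genes (Slc38a7, Slc36a1 and Slc1a3), where 5.90% of all measured genes were, and 1 gene, Slc15a2, was at least 1.5-fold lower, where 7.16% were. At least 2-fold higher was 1 gene, Slc38a7, against a background of 1.49%, and none was 2-fold lower, against 2.01%. With so few genes past either fold, these counts are not read as a feature of the transporters. All of these folds are on the log2 scale with the added 1. With the libraries scaled to equal totals, 18 of the 26 and 56.9% of all measured genes were higher, and Slc7a5 also passed 1.5-fold.

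**Figure D2:**
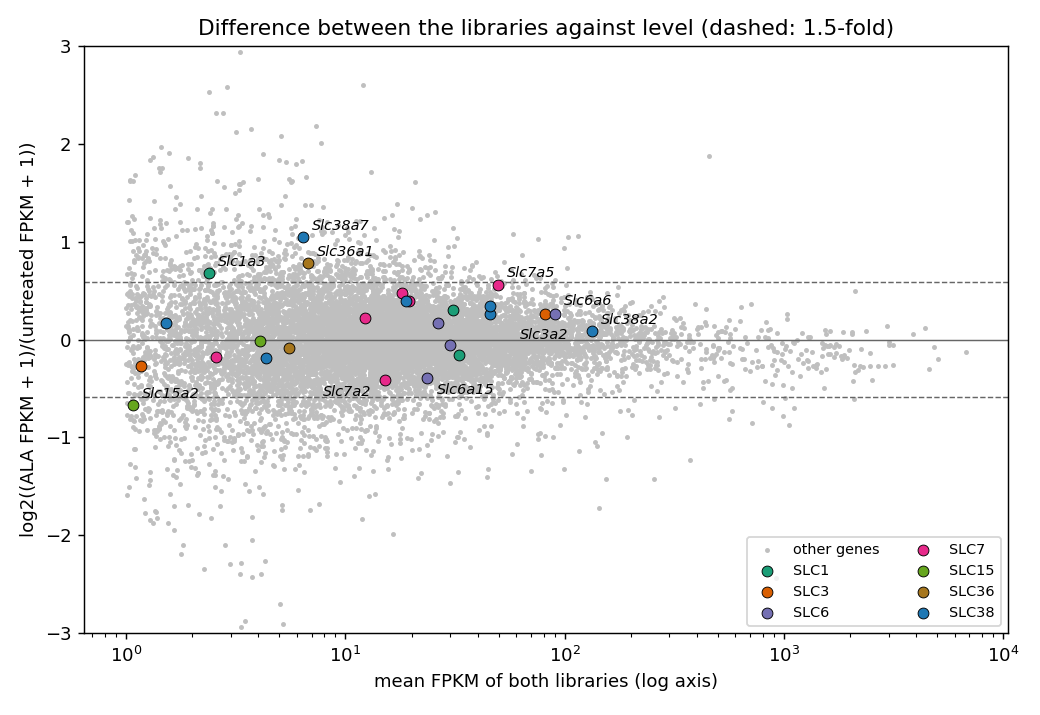
Log2 ratio of ALA to untreated against mean FPKM (log axis) for all measured genes (grey; 9 lie outside the axis) and the 26 measured transporter genes (coloured by family); dashed lines mark 1.5-fold. Slc38a7, Slc36a1 and Slc1a3 lie above the upper line and Slc15a2 below the lower one, all at low mean FPKM, while the abundant Slc38a2, Slc6a6 and Slc3a2 lie just above 0.

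The pair of genes with the highest log2 ratios encodes carriers of the lysosomal membrane. Slc38a7, which encodes SNAT7, a carrier that exports glutamine from lysosomes, had 3.82 FPKM untreated and 8.94 FPKM with ALA. The ratio was 2.34, with a counting interval of 2.06 to 2.67 from about 310 and 980 reads, and the log2 ratio of 1.04 ranked 144 from the highest of 10929. Slc36a1, which encodes PAT1, a proton-coupled carrier of small amino acids found at lysosomes and at the cell surface, had 4.68 FPKM untreated and 8.76 FPKM with ALA. Its ratio was 1.87 (1.70 to 2.06), its log2 ratio of 0.78 ranked 327, and both genes had under 3% of their sequence in common with other genes.

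In the GENCODE annotation of GRCm38, Slc38a7 occupies chromosome 8, minus strand, positions 95835920 to 95853539, with 12 exons in its chosen transcript. Slc36a1 occupies chromosome 11, plus strand, positions 55204350 to 55236330, with 11 exons. On the log2 scale, the other genes in the list of 5 lysosomal carriers used here differed less. Slc38a9, the lysosomal arginine sensor that signals to mTORC1, had 1.38 and 1.67 FPKM, a ratio of 1.21 (1.05 to 1.40). Slc15a4, a lysosomal carrier of histidine and peptides, had 4.11 and 4.04 FPKM, a ratio of 0.984 (0.838 to 1.16). Slc15a3, its close relative, was listed at 0 untreated and 0.013 FPKM with ALA.

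Promoter windows of 300 bases, 250 before to 50 after the start, are shown for both genes because their windows share a palindromic hexamer, CACGTG, printed in capitals. It is the core of the E-box bound by basic helix-loop-helix factors such as CLOCK, MYC and TFEB. Sequences are from RefSeq, build GRCm38.p6, read 5′ to 3′ along the gene, at chr8:95853442-95853741 on the minus strand and chr11:55204090-55204389 on the plus strand.
Slc38a7: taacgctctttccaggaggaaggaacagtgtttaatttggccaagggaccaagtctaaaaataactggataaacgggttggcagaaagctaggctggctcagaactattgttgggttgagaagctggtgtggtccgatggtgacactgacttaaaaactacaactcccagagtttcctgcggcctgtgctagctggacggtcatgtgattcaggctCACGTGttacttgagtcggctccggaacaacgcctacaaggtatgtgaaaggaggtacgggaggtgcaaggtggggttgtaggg
Slc36a1: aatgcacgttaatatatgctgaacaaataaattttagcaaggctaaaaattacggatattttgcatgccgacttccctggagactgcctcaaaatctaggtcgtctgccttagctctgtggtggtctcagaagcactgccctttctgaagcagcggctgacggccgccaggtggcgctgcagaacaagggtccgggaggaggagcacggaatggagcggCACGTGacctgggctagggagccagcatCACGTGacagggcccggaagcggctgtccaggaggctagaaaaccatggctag
The hexamer begins at -34 from the Slc38a7 start and at -31 and -3 from the Slc36a1 start. This motif was searched after the values were seen. Of the 26 measured transporter genes 19 had a window in the table, and these were the only 2 of the 19 with CACGTG, which 7.15% of all 32851 windows hold and 8.09% of all 27025 genes hold in at least 1 window. Over all 43 transporter genes with a window, 7 held it. The other 5 were under 1 FPKM: Slc7a14 (0.277 and 0.069 FPKM) and Slc1a7 (0.503 and 0.416 FPKM) were lower with ALA. Slc1a6, Slc6a3 and Slc38a5 were listed at 0 in both libraries. With 2 genes and a search made after the values were seen, the motif is not read as linked to the ratios. A match describes the letters only, and no binding was measured.

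Among the genes listed as possible ALA carriers, values went both ways. Slc6a6 was 1.20-fold higher with ALA (1.17 to 1.23) and was by far the most abundant of them, with 81.8 and 98.1 FPKM. Slc36a1, given above, was 1.87-fold higher. The list of 6 also held the creatine carrier gene Slc6a8, a relative of the taurine carrier gene, which had 24.7 and 27.9 FPKM, a ratio of 1.13 (1.07 to 1.19). These 3 genes were higher in the ALA library.

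The peptide carrier gene Slc15a2 (PEPT2, known best from kidney and brain) was lower, with 1.55 FPKM untreated and 0.597 FPKM with ALA. Its ratio was 0.386 (0.290 to 0.511), a 2.59-fold lower level resting on about 151 and 79 reads, and its log2 ratio of -0.67 ranked 591 from the lowest of 10929. Slc15a2 occupies chromosome 16, minus strand, positions 36750177 to 36784962. Slc15a1 (PEPT1, the intestinal peptide carrier) was near the detection limit with 0.014 and 0.071 FPKM, about 1 and 7 reads, a ratio of 5.18 whose counting interval of 0.689 to 210 includes 1. Slc6a13 (GAT2) was listed at 0 in both libraries, and so was Slc15a5, a peptide carrier relative. The 6 genes together summed to 113 FPKM untreated and 135 FPKM with ALA, a ratio of 1.20. Most of both sums was Slc6a6 (81.8 and 98.1 FPKM).

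Of the genes for surface heterodimers, the heavy chain Slc3a2 and 3 of 4 measured light chain partners were higher with ALA, where 47.8% of all measured genes were. The heavy chain gene Slc3a2 had a ratio of 1.20 (1.16 to 1.25). Its light chain partners in the families (Slc7a5, Slc7a6, Slc7a7, Slc7a8, Slc7a10 and Slc7a11) summed to 69.1 FPKM untreated and 96.3 FPKM with ALA, a ratio of 1.39, so their sum was below the Slc3a2 level in the untreated library and above it in the ALA library. Slc7a5 made up most of that difference, with 39.96 FPKM untreated and 59.4 FPKM with ALA. Its ratio was 1.49 (1.43 to 1.55) and its log2 ratio of 0.56 was just short of 1.5-fold, and with equal library totals it was 0.64, past 1.5-fold.

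Slc7a6, the light chain y+LAT2 that exchanges arginine for glutamine, had 14.9 and 21.2 FPKM, a ratio of 1.42 (1.33 to 1.52). Slc7a11, which encodes xCT, the cystine-glutamate exchanger that supplies cysteine for glutathione, had 11.2 and 13.3 FPKM, a ratio of 1.18 (1.12 to 1.24). By contrast Slc7a7, the related y+LAT1, had 2.79 and 2.36 FPKM, a ratio of 0.843 (0.675 to 1.05) whose interval includes 1, and 9.31% of its sequence is uncertain because of Oxa1l. Slc7a8 (LAT2) had 0.259 and 0.083 FPKM, and Slc7a10 (Asc-1) was listed at 0 and 0.017 FPKM. Slc7a5 and Slc7a6 thus made up most of the light chain sum.

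The other heavy chain, Slc3a1, had 1.37 FPKM in the untreated and 0.962 FPKM in the ALA library, a ratio of 0.702 (0.501 to 0.984) from about 75 and 71 reads. That value is uncertain, since 26.5% of its exon bases lie inside Prepl, a gene on the opposite strand with 9.69 and 8.09 FPKM, and no strand setting is given. Its known light chain partners Slc7a9 and Slc7a13 were listed at 0 in both libraries.

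The Slc7a11 promoter window is shown as the textbook case of an amino acid response element, the site through which the stress factor ATF4 acts. Capitals mark TGATGNAA, the core of that element, found on either strand; the window is chr3:50443564-50443863 on the minus strand, from RefSeq, GRCm38.p6.
Slc7a11: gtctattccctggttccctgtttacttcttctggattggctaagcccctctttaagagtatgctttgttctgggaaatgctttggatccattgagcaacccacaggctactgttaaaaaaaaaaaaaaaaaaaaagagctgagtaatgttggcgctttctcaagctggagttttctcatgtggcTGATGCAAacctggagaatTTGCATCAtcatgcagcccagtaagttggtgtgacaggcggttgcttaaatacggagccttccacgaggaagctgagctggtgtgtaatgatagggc
It holds 2 matches that face each other, at -66 in the reading direction and at -47 on the opposite strand. Of all windows 3.97% hold the motif and of all genes 4.51% do in at least 1 window, some genes having several, and of the 19 measured transporter genes with a window 3 did: Slc7a11, Slc1a4 and Slc7a7. Their log2 ratios were 0.22, -0.16 and -0.18. The hypoxia response element was searched as ACGTG (19.6% of all windows, 21.8% of all genes, 8 of the 19 genes) and as GCGTG (32.4% of windows, 35.2% of genes, 10 of the 19), and every CACGTG contains an ACGTG. The holders are given with log2 ratios in brackets. ACGTG was held by Slc15a2 (-0.67), Slc7a7 (-0.18), Slc38a10 (0.26), Slc3a2 (0.27), Slc7a6 (0.48), Slc1a3 (0.68), Slc36a1 (0.78) and Slc38a7 (1.04). Of these, Slc15a2, Slc38a10 and Slc7a6 held GCGTG as well. The other genes with GCGTG were Slc1a4 (-0.16), Slc36a4 (-0.08), Slc6a9 (-0.05) and Slc15a4 (-0.02), and Slc38a2 (0.09), Slc38a4 (0.34) and Slc7a1 (0.39). A link of either motif with the ratios was not tested.

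**Figure D3:**
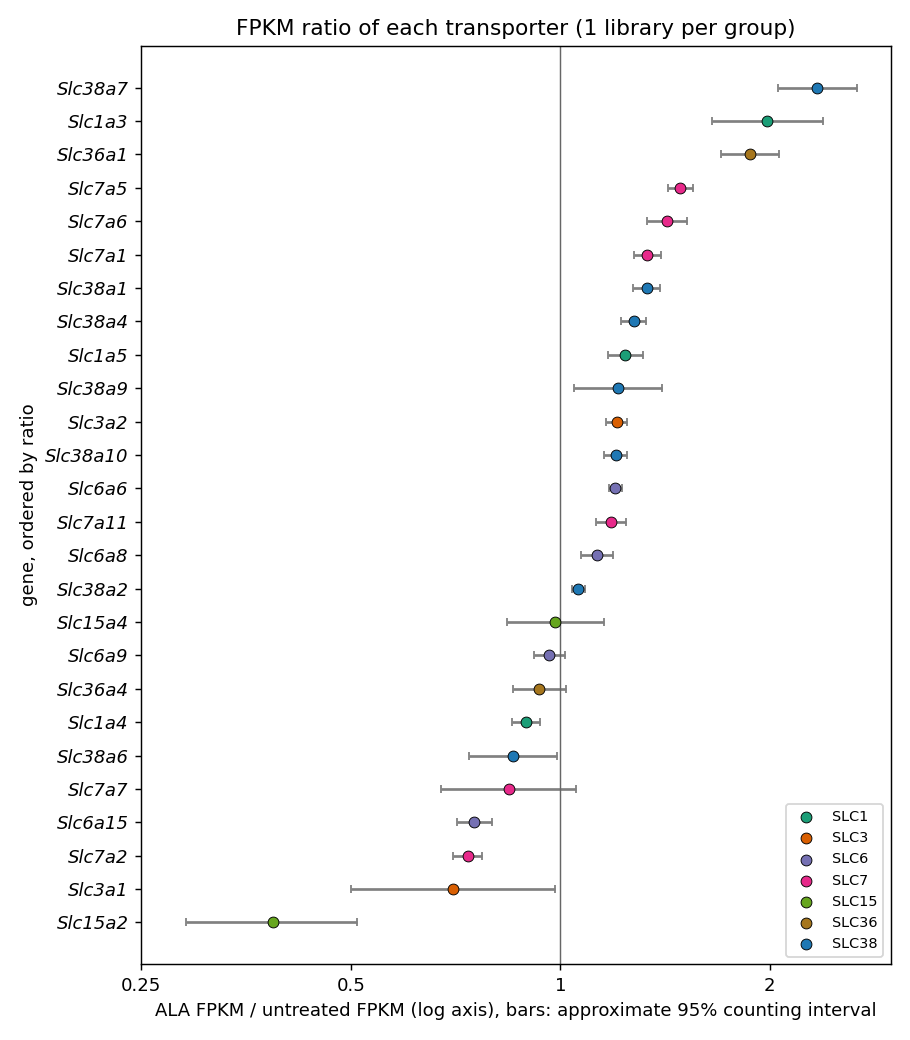
Ratio of ALA to untreated FPKM (log axis) for the 26 measured transporter genes, ordered by ratio and coloured by family; bars are approximate 95% counting intervals and each group is 1 library. The intervals of 16 genes lie above 1, those of 6 below 1 and those of 4 include 1, and the widest belong to genes with few reads such as Slc15a2 and Slc3a1.

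The cationic amino acid carriers differed in direction. Slc7a1 (CAT-1), the general arginine and lysine carrier, had 16.6 FPKM in the untreated and 22.2 FPKM in the ALA library, a ratio of 1.33 (1.27 to 1.40). Slc7a2 (CAT-2), which supplies arginine to nitric oxide synthase in activated cells, had 17.4 and 12.8 FPKM, a ratio of 0.737 (0.702 to 0.773). The genes were nearly level in the untreated library and apart in the ALA library, while their sum with Slc7a3 hardly differed, at 34.2 and 34.98 FPKM. Slc7a3 itself was at 0.182 FPKM untreated, about 10 reads, and listed at 0 with ALA.

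In SLC1, which holds the glutamate carriers and the neutral exchangers, 3 of 7 genes were measured. Slc1a3 (GLAST), a high-affinity glutamate carrier best known from astrocytes, had 1.60 FPKM untreated and 3.18 FPKM with ALA. Its ratio was 1.98 (1.65 to 2.39) from about 163 and 437 reads, and its log2 ratio was 0.68. It was the only measured glutamate carrier: Slc1a2 was at 0.057 and 0.026 FPKM and Slc1a7 at 0.503 and 0.416 FPKM, and Slc1a1 and Slc1a6 were listed at 0 in both libraries.

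The neutral exchangers of SLC1 were far more abundant. Slc1a5 (ASCT2), a main route of glutamine into dividing cells, had 27.6 and 34.3 FPKM, a ratio of 1.24 (1.17 to 1.31). Slc1a4 (ASCT1), which prefers serine, alanine and cysteine, had 34.7 and 30.99 FPKM, a ratio of 0.894 (0.854 to 0.936). The order of these 2 genes was therefore opposite in the 2 libraries.

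SLC38, the family of sodium-coupled neutral amino acid carriers, held 7 measured genes of 11, and 6 of the 7 were higher in the ALA library, as were 47.8% of all measured genes. The 3 system A genes stand side by side on the minus strand of chromosome 15, between 96571418 and 97055956, and all were expressed. Slc38a1 (SNAT1) had 16.2 and 21.5 FPKM, a ratio of 1.33 (1.27 to 1.39), and Slc38a4 (SNAT4) 39.9 and 50.9 FPKM, a ratio of 1.27 (1.22 to 1.33). The abundant Slc38a2 differed less, with a ratio of 1.06 (1.04 to 1.08). Slc38a10, a little-studied member, had 41.5 and 49.8 FPKM, a ratio of 1.20 (1.16 to 1.25). Slc38a6 was the lower one, with 4.69 and 4.01 FPKM, a ratio of 0.855 (0.739 to 0.991). Slc38a3, Slc38a5, Slc38a8 and Slc38a11 were listed at 0 in both libraries.

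SLC6 is best known for the carriers that clear neurotransmitters, and most of those were at or near 0. Of 17 SLC6 genes 4 were measured and 7 were listed at 0 in both libraries. Of 9 carriers of neurotransmitters and their relatives, the glycine carrier gene Slc6a9 (GlyT1) was the 1 measured, with 30.4 and 29.3 FPKM, a ratio of 0.964 (0.915 to 1.02). Glycine is, with succinyl-CoA, a substrate of the enzyme that makes ALA. The direction of the Slc6a9 difference turned with equal library totals (log2 ratio 0.02 in place of -0.05), as did that of Slc15a4 (0.04 in place of -0.02). Slc6a9 also shares 41.8% of its 41-base stretches with transcripts of other genes, most often Ccdc24, which had 4.36 and 6.45 FPKM. Slc15a4 shares 14.3%, most often with Gm43474, so the values of Slc6a9 and Slc15a4 are uncertain.

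Slc6a15, which encodes a carrier of proline and branched-chain amino acids, was lower with ALA. It had 26.97 FPKM in the untreated and 20.3 FPKM in the ALA library, a ratio of 0.753 (0.711 to 0.797). Together with Slc7a2 and Slc1a4 it was among the abundant transporter genes that were lower. In SLC36, Slc36a4 (PAT4), a high-affinity carrier of proline and tryptophan, had 5.71 and 5.32 FPKM, a ratio of 0.933 (0.855 to 1.02). Its relative Slc36a1 was thus the higher one of the family, which has 4 genes.

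Genes with a mean between 0.1 and 1 FPKM were lower in 5 of 5 cases, where 45.8% of all genes at that level were lower, and all had few reads. Slc7a14 was at 0.277 untreated and 0.069 FPKM with ALA, from about 61 and 20 reads. Slc6a2, the noradrenaline carrier gene, was at 0.274 and 0.044 FPKM, from about 41 and 9 reads. Slc6a12, the betaine carrier gene, was at 0.407 FPKM untreated, about 26 reads, and listed at 0 with ALA. Slc7a8 and Slc1a7, given above, complete the 5, and the ratio of 0.828 for Slc1a7 had an interval of 0.518 to 1.33, which includes 1. In the other direction 7 genes were listed at 0 untreated and above 0 with ALA, the highest of them Slc6a7 at 0.108 FPKM, about 12 reads, in a library that was 1.35 times as deep.

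Members that lie side by side in the genome were compared. Slc6a3, Slc6a18 and Slc6a19 on chromosome 13 were at or below 0.027 FPKM. By contrast Slc36a1 stood next to Slc36a2 and Slc36a3 on chromosome 11, and these were at or under 0.060 FPKM in both libraries. Within the family sums, SLC7 had a ratio of 1.27, from 104 to 131 FPKM, and SLC36 of 1.36, from 10.4 to 14.1 FPKM. SLC38, the most abundant, had 237 and 274 FPKM, a ratio of 1.16, and SLC3 75.3 and 90.0011 FPKM, a ratio of 1.20. SLC1 and SLC6 differed least, both with a ratio of 1.07, and SLC15 was lower, from 5.67 to 4.72 FPKM. As shares of the transporter sum, SLC38 held 35.8% untreated and 36.1% with ALA, SLC6 24.9% and 23.2%, SLC7 15.7% and 17.3%, SLC3 11.4% and 11.9%, and SLC1 9.76% and 9.07%. The small families held 1.57% and 1.86% (SLC36) and 0.858% and 0.622% (SLC15).

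**Figure D4:**
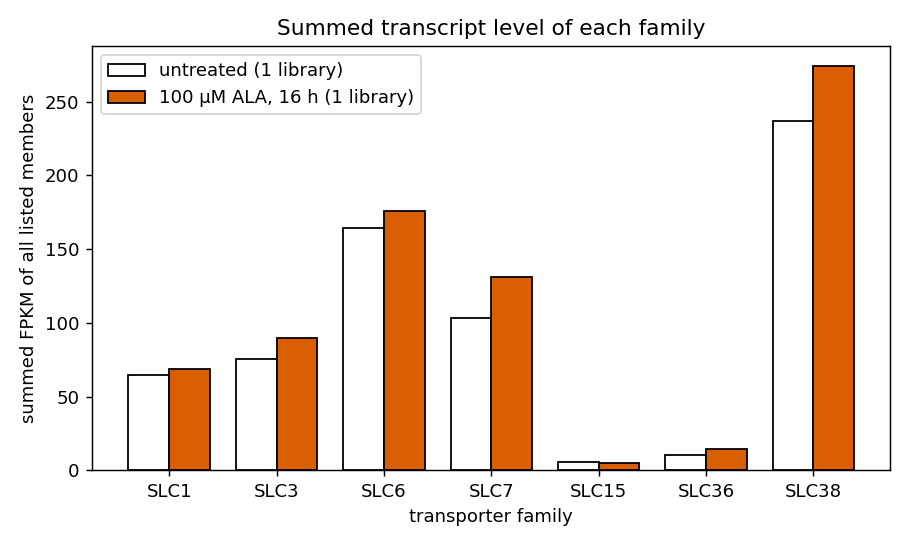
Summed FPKM of all listed members of each family in the untreated library (open bars) and the ALA library (filled bars), 1 library each. Sums were higher with ALA in 6 families, with SLC7 going from 104 to 131 FPKM, and lower in SLC15.

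Genes of 3 other lists, chosen with earlier results of these data known, had medians below that of the transporters. The amino acid response list, targets and regulators of ATF4, had 35 of 35 genes measured, with a median log2 ratio of -0.03. Of these, 15 were higher and 20 lower, where 47.8% of all measured genes were higher. None was 1.5-fold higher, where 5.90% of all measured genes were, and 6 were 1.5-fold lower, where 7.16% were. Among the 6 were Atf3, a stress-induced factor (2.29 and 0.284 FPKM), Ndrg1 (161 and 72.5 FPKM), Ddit4, an inhibitor of mTORC1 (109 and 54.4 FPKM), and Ppp1r15a, which ends the stress arrest of translation (8.95 and 4.94 FPKM). Ndrg1 and Ddit4 are also known as genes raised in hypoxia. Atf4 itself had 245 and 242 FPKM. Of the Ndrg1 sequence 15.5% is shared with other genes. Ddit3, another of the 6, has a 105-base gene model whose sequence is 100% uncertain. With under 10% shared sequence 4 genes were 1.5-fold lower. Of the 15 higher genes, Shmt2 had the largest log2 ratio, 0.56 (35.8 and 53.2 FPKM).

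The list for amino acid sensing by mTORC1 had 34 measured genes, with a median of 0.00 after rounding (-0.0033). Of these, 16 were higher and 18 lower, where 47.8% of all measured genes were higher. None was 1.5-fold higher, where 5.90% of all measured genes were. Mlst8, an mTORC1 subunit, was the 1 gene 1.5-fold lower, where 7.16% were (11.1 and 6.81 FPKM, with 29.7% of its sequence shared). Next by size were Lamtor1 (59.8 and 40.8 FPKM), Gatsl2 (4.96 and 3.21 FPKM) and Lamtor4 (30.6 and 21.9 FPKM). The Lamtor genes encode the lysosomal anchor of the pathway, and the other 3 of them, named after their values were seen, had 61.1 and 75.5 FPKM (Lamtor2), 48.7 and 47.7 FPKM (Lamtor3) and 53.6 and 42.9 FPKM (Lamtor5). Of the Lamtor1 sequence 22.4% is shared or overlapped, of Lamtor3 20.2% and of Lamtor5 16.5%.

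Carriers and accessory genes outside the 7 families, not all of them for amino acids, had 18 measured genes with a median of -0.15. Of these 3 were higher and 15 lower, where 52.2% of all measured genes were lower. At least 1.5-fold lower, as 7.16% of all measured genes were, were 4: Slc46a3, a lysosomal carrier (5.22 and 1.63 FPKM), Arl6ip1 (2.2003 and 0.876 FPKM), Slc17a5, the lysosomal sialic acid carrier (9.37 and 5.23 FPKM), and Slc43a2, a carrier of large neutral amino acids (2.13 and 1.04 FPKM), named after its value was seen. The 1 gene 1.5-fold higher, where 5.90% of all measured genes were, was Slc7a6os. It is not a carrier: it takes its name from its place opposite Slc7a6. Slc46a3 and Slc17a5 were thus lower, and Slc38a7 and Slc36a1 higher, all 4 being carriers of the lysosomal membrane. These 4 are not a full count of lysosomal carriers. Ctns (12.1 and 8.34 FPKM), Pqlc2 (5.74 and 4.39 FPKM) and Mfsd12 (6.25 and 5.79 FPKM), of the same list, were lower too. Of the Mfsd12 sequence 26.0% is shared or overlapped.

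**Figure D5:**
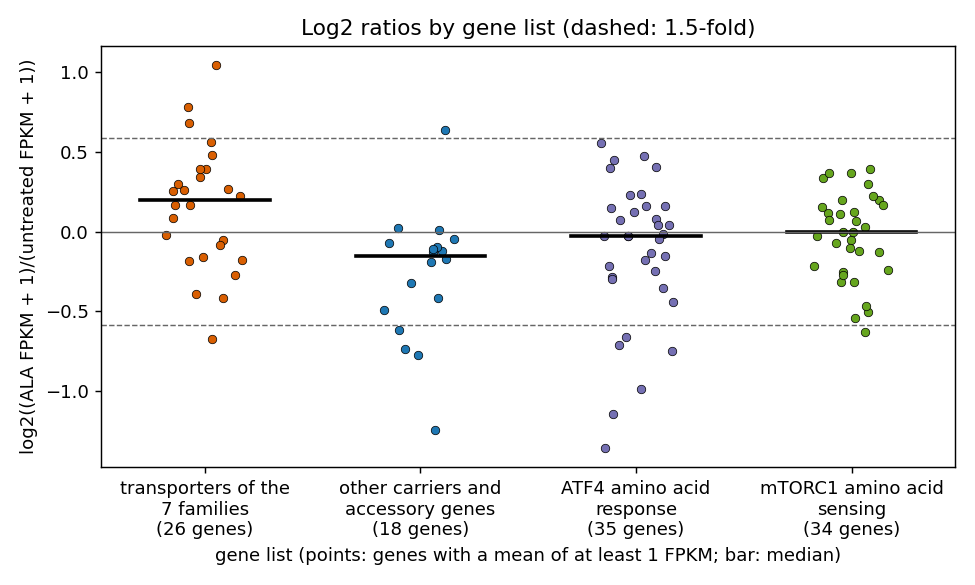
Log2 ratios of measured genes in the 7 transporter families and in 3 other lists; points are genes, bars are medians, and dashed lines mark 1.5-fold. The transporters have a median of 0.20, the other carriers and accessory genes -0.15, the ATF4 list -0.03, and the mTORC1 list one near 0.

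Fibroblast markers were all measured (10 of 10), 8 lower and 2 higher (Postn and Pdgfrb), where 52.2% of all measured genes were lower. Pdgfra (57.6 and 36.6 FPKM) and Thy1 (60.2 and 38.8 FPKM) were at least 1.5-fold lower, where 7.16% of all measured genes were. The most abundant of these markers included Col1a1 at 1047 and 980 FPKM, Fn1 at 2367 and 1765 FPKM and Vim at 2272 and 1896 FPKM. The sum of all 10 was 7881 FPKM untreated and 6584 FPKM with ALA. Both libraries come from the same cell line, and what lay behind the lower sum was not tested. Neuron markers summed to 3.24 and 5.05 FPKM with 2 of 10 measured and Rbfox3, Gad1, Slc17a6 and Slc32a1 listed at 0. Glial markers summed to 4.28 and 4.198 FPKM with 1 of 7 measured and Gfap, Aqp4, Aldh1l1 and Olig2 at 0, beside the higher value of the glial carrier gene Slc1a3. Epithelial markers summed to 1.53 and 0.985 FPKM with 1 of 7 measured, Cdh1 (1.23 and 0.944 FPKM), beside the lower value of Slc15a2. Vil1 had 0.262 and 0.027 FPKM, Lrp2 0.033 and 0 FPKM and Krt8 0 and 0.014 FPKM. Epcam, Krt18 and Cdh16 were listed at 0 in both libraries. Macrophage and blood markers summed to 29.9 and 17.98 FPKM, with 3 of 6 measured and none at 0 in both. Cd14 (13.1 and 4.69 FPKM) and Lyz2 (15.2 and 9.59 FPKM) were lower, and the other 4 were higher: Cd68 (0.237 and 1.40 FPKM), Ptprc (0.367 and 0.754 FPKM), Aif1 (0.949 and 1.42 FPKM) and Itgam (listed at 0, and 0.120 FPKM). Of the Lyz2 sequence 22.3% is shared with other genes, and of the Itgam sequence 72.9%. The part of these markers in the transporter values was not tested. Of genes known to respond to heme, Alas1, which encodes the ALA synthase, had 10.2 and 4.52 FPKM, and Hmox1, the heme oxygenase gene, 66.8 and 139 FPKM.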

How the data were processed

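The deposited values are FPKM per gene, 1 value per library, in the layout of a Cufflinks tracking table, per the file headers. Per the submitters' processing notes, FastQC 0.11.5, TopHat2 2.1.1 and Cufflinks 2.2.1 were used on mouse build mm10. Per the labels' protocols the reads were single-end, 41 bp, from TruSeq libraries. The sources used here do not give the annotation, options, strand setting or scaling. The deposited interval bounds were equal in 100% of rows and carried no error.

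Python 3.11.15 with pandas 2.3.3 and scipy 1.17.1 computed log2 ratios with a pseudocount of 1 over genes averaging 1 FPKM or more; no count test was applied to FPKM. The depth of each library was estimated by treating FPKM times transcript length as a whole number of reads: 31.0% of low values came within 0.1 read of a whole number at the chosen depth, against 19.9% at others, and 22.5 to 26.1 M gave nearly as good a fit for the untreated library. Gene models and the share of 41-base stretches found in other genes came from GENCODE vM21 (GRCm38, which mm10 names), where 61 of 61 transporter genes matched. Promoter windows from RefSeq matched 43 of them.

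Named were every transporter gene averaging 1 FPKM or more, those from 0.1 to 1 FPKM, the genes listed as possible ALA carriers, and Atf4. From each other list up to 4 genes with the largest absolute log2 ratio were named. Further genes were named after their values were seen. The members and lists were chosen with earlier results of these data known. Alternatives were pseudocounts of 0.1 and 5, no filter, a minimum of 5 FPKM, 2 other scalings, and genes with under 10% shared sequence.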

Additional observations from a re-analysis of the deposited data

How the results depend on the processing

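The median log2 ratio of the transporters stayed positive under all 7 alternatives and was 0.0449 with no filter, when 42 genes entered and 25 were higher and 17 lower (51.4% of all genes entering were higher). At a mean of at least 5 FPKM, where 47.5% of all 8607 genes were higher, 5 were lower, of 19. None was 1.5-fold lower (0), where 447 of the 8607 were. A pseudocount of 0.1 put 1 gene, Slc15a2, at 2-fold lower, where 389 of all 10929 measured genes were. With a pseudocount of 5, which shrinks low genes most, 1 gene was 1.5-fold higher, 0 were 1.5-fold lower and 0 were 2-fold higher. Of all 10929 measured genes, 194, 299 and 31 were. In the other lists the numbers 1.5-fold lower with that pseudocount were 3 in the amino acid response list, 0 in the mTORC1 list and 1 among other carriers, where 0 were 1.5-fold higher. For other carriers, no filter gave 2 genes 1.5-fold higher, where 868 of all 14897 genes entering were, and a minimum of 5 FPKM 1 lower. The mTORC1 list had 2 genes 1.5-fold lower with a pseudocount of 0.1, where 1037 of all 10929 measured genes were. It had 0 with equal library totals, where 642 of the 10929 were, and 0 with under 10% shared sequence. Equal totals gave 1 gene 1.5-fold higher in the amino acid response list, where 848 of the 10929 were. Family sums kept their direction under both scalings. No paired analysis was possible because each group has 1 library. Depth limits genes under 1 FPKM, where at most 61 reads lay behind a transporter's value.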

Other observations

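Rows named after the transporter genes but outside the naming rule also differed between the libraries. Slc36a1os, annotated as antisense (chromosome 11, minus strand, 55191719 to 55197864), upstream of Slc36a1, had 0.463 FPKM untreated and 0.987 FPKM with ALA, from about 20 and 57 reads. Slc7a6os, a gene at chromosome 8, minus strand, 106200717 to 106210935, beyond the 3′ end of Slc7a6, had 9.63 and 15.6 FPKM, a ratio of 1.62 beside 1.42 for Slc7a6. Of the Slc36a1os sequence 12.1% is shared with other genes, most often Spr-ps1, and its overlap with Slc36a1 exons is 0. Slc6a20a, a proline carrier gene, was listed at 0 untreated and 0.329 FPKM with ALA, about 29 reads, and its copy Slc6a20b at 0 and 0.033 FPKM.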
